A study of Mus musculus with 6 samples.

Results

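The genes described here were 10 transcription factor genes of germinal center B cells, *Bcl6*, *Bach2*, *Pax5*, *Ebf1*, *Pou2af1*, *Spib*, *Irf8*, *Mef2b*, *Mef2c* and *Foxo1*, chosen by symbol out of 24499 genes in the deposited table. They were measured by bulk RNA-seq of poly(A) RNA from *in vitro* germinal center B cells (iGCBs), which are naive splenic B cells of C57BL/6J mice driven into a germinal center-like state on 40LB feeders, BALB/c 3T3 fibroblasts that express CD40L and BAFF. The feeders had received 120 Gy, IL-4 was present at 1 ng/ml, and cells were taken at day 3. Mice of the cKO group (n = 3) were homozygous for a floxed allele of *Eif3e* (fl/fl) and carried *Cγ1*Cre and a *Rosa26-YFP* LSL reporter. The product of *Eif3e* is part of eIF3, a factor that starts translation. The control group (n = 3) is taken to have carried the same Cre and reporter without the floxed allele. The study gives this genotype for the controls of its spleen and lymph node analyses, and other genotypes for its survival controls. It states none for the iGCB controls, and the labels call the group control only. *Cγ1*Cre is expressed from the Ig γ1 constant region locus, so deletion starts only after activation, and both groups were sorted for YFP+ cells, that is, for cells in which Cre had acted. The study describes the libraries of a group as biological replicates, without stating whether each came from 1 mouse, and p-values measure the spread between these libraries. The ages of the mice are not given in the sources used here.

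BCL6 is the transcriptional repressor that defines germinal center B cells. It silences genes of cell cycle arrest, apoptosis, activation and plasma cell differentiation, and *Mef2b* encodes an activator of the *Bcl6* gene. PAX5 and EBF1 hold B cell identity. BACH2 restrains plasma cell differentiation, while POU2AF1 (OBF1) joins the octamer-binding factors OCT1 and OCT2, and SPIB, IRF8 and FOXO1 each support germinal center formation or organization.

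The 6 libraries held between 39079582 and 45504570 estimated counts, and log2 expression profiles correlated at r = 0.977 to 0.982 within groups and 0.953 to 0.961 between groups. Levels are given below as CPM, counts scaled to a common library size by TMM, a normalization that centers the typical gene. A gene was called when its p, adjusted over 13296 tested genes in edgeR's quasi-likelihood test, was under 0.05. A fold change is cKO over control. Its SE was derived from that test, as the absolute log2 fold change divided by the square root of the F statistic. The targeted gene, *Eif3e*, lay at 173, 149.8 and 152 CPM in the cKO libraries and at 424, 401 and 392 CPM in the controls, 2.56-fold lower (log2 fold change -1.36 ± 0.0657 (SE), adjusted p = 6.71e-07). The iGCB label held for B cell markers, all 8 of which were expressed. Of 12 germinal center markers, *Rgs13* (means of 1.54 CPM in cKO and 2.03 CPM in controls) and *Nuggc* (0.247 and 0.63 CPM) were scarce in both groups. Reads of *Xist*, the RNA of the inactive X chromosome, exceeded 1000 counts in 1 cKO and 2 control libraries and were below this in the others. Where a bulk level differs, fewer cells of a type and less RNA per cell cannot be told apart.

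All 10 factor genes passed the filter on low counts. In cKO iGCBs 6 were lower (*Mef2b*, *Foxo1*, *Pou2af1*, *Bach2*, *Irf8* and *Bcl6*), 3 were higher (*Pax5*, *Ebf1* and *Mef2c*) and *Spib* was not called. Over all tested genes 24.5% were called lower and 24.1% higher, so a call is common in this comparison. The median log2 fold change was -0.333 over the 10 factors and -0.00402 over all tested genes. With the further condition of a fold over 1.5, only *Mef2b* and *Foxo1* remained on the lower side and 0 on the higher side in edgeR, where the largest increase, that of *Pax5*, was 1.40-fold. Over all tested genes, 10.6% and 10.4% passed this condition. *Foxo1* lay just inside this limit, at 1.52-fold lower, and *Pou2af1* just outside, at 1.49-fold lower.

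**Figure D1:**
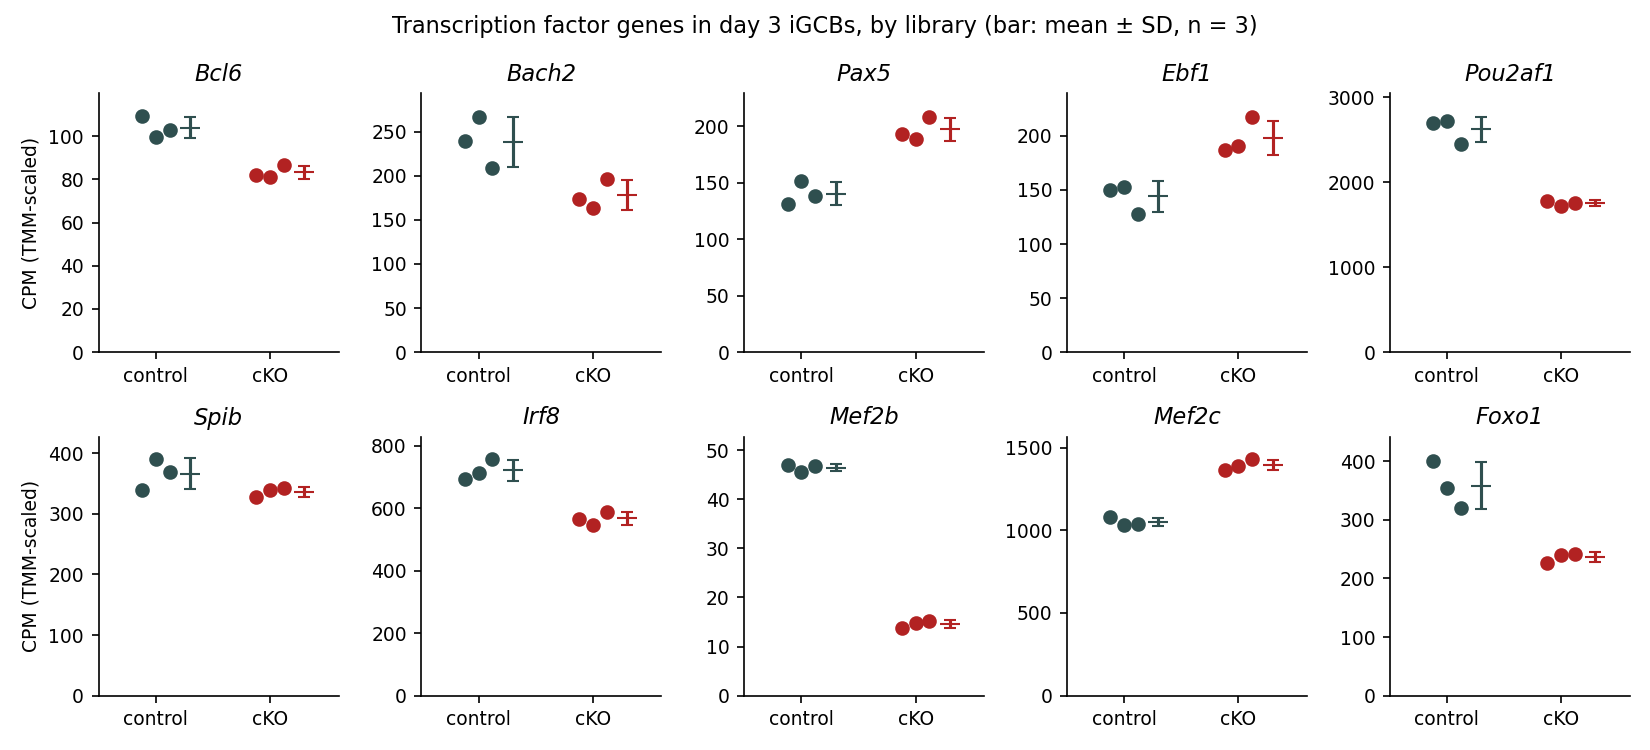
TMM-scaled CPM of the 10 factor genes in each of 3 control (dark) and 3 cKO (red) libraries, with the mean and SD beside the points; each y axis starts at 0. The groups are apart for every gene but *Spib*, and the gap is widest relative to the control level for *Mef2b* (13.8 to 15.2 CPM in cKO against 45.6 to 47.0 in control).

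The groups did not overlap for 9 of the 10 genes, 6 with every cKO library below every control and 3 with every cKO library above. Among all tested genes, 29.5% had every cKO library below the controls and 29.2% had every cKO library above. These directions were also seen separately among libraries with *Xist* reads (1 cKO against 2 control) and without (2 against 1). The size differed most between these classes for *Bach2* (log2 ratio -0.63 with *Xist* reads and -0.18 without) and *Ebf1* (0.34 and 0.66). These within-class ratios rest on a single library on one side and were not tested.

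*Mef2b* changed most among the 10 genes. MEF2B is a MADS-box activator that is expressed in germinal center B cells. Its gene (chr8:70139711-70167488, plus strand, GRCm38) lay at 13.8, 14.9 and 15.2 CPM in the cKO libraries and at 47.0, 45.6 and 46.7 CPM in the controls. All cKO values lay far below the controls, and the mean fell from 46.4 ± 0.728 to 14.6 ± 0.766 CPM (SD, n = 3 each), or to 31.5% of the control mean (log2 fold change -1.67 ± 0.082 (SE), adjusted p = 7.01e-07). *Mef2b* overlaps *Borcs8*, which encodes a subunit of a lysosome positioning complex, on the same strand, with 62 exonic bases in common out of 1404 for *Mef2b*. *Borcs8*, chosen after its values were seen because of this overlap, was itself lower, at 31.6 ± 0.594 against 53.7 ± 2.61 CPM (SD, n = 3 each; log2 fold change -0.77, adjusted p = 1.91e-05). Reads in the shared bases may be counted for either gene.

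The window from 250 bases before to 50 bases after the RefSeq start of *Mef2b* (chr8:70152511-70152810, plus strand, GRCm38.p6) is shown because, of 15 such windows of the 10 genes, it was the only one with a perfect octamer, ATGCAAAT on either strand, the element bound by OCT1 and OCT2 and their partner POU2AF1. The octamer, in capitals, starts 85 bases before the start site. Of 32851 promoter windows of the same length, 1.74% held it.
Mef2b: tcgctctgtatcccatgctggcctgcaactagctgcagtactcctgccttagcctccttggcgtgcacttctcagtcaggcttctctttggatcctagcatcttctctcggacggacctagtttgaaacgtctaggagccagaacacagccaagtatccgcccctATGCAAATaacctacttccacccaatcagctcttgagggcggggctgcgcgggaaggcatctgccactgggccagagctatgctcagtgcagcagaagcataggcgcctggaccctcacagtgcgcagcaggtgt

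*Mef2c* moved in the opposite direction to *Mef2b*. MEF2C acts downstream of antigen receptor signaling in B cell proliferation. *Mef2c* (chr13:83504034-83667080, plus strand) lay at 1366, 1391 and 1428 CPM in cKO and at 1081, 1034 and 1038 CPM in control iGCBs. All cKO libraries were above all controls, and the increase was 1.33-fold (log2 fold change 0.41 ± 0.0395 (SE), adjusted p = 2.17e-05). Both RefSeq transcripts of *Mef2c* in the table rose, NM_001170537 by 0.38 and NM_025282 by 0.47 on the log2 scale (adjusted p = 0.00345 and 0.00493 over 18040 tested transcripts). The first of them held between 66.2% and 68.9% of the gene's counts in cKO libraries and between 66.7% and 71.3% in controls, which are overlapping ranges. Of the other relatives, *Mef2d* fell (log2 fold change -0.68, adjusted p = 8.57e-06) and *Mef2a* averaged 313 ± 27.0 CPM in cKO libraries and 312 ± 15.0 CPM in controls (SD, n = 3 each; adjusted p = 0.994).

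*Bcl6* was lower in cKO iGCBs. It lies on chromosome 16 (chr16:23965052-23988852, minus strand) and lay at 82.2, 81.3 and 86.8 CPM in the cKO libraries and at 109.5, 99.9 and 103 CPM in the controls. The highest cKO library was below the lowest control, and 80.1% of the control mean remained (log2 fold change -0.32 ± 0.0574 (SE), adjusted p = 0.0011). Its single transcript in the table, NM_009744, gave -0.32 as well. The fold change of *Bcl6* stayed between -0.36 and -0.28 over 13 alternative settings. Across the 6 libraries, the genes with at least 10 mean CPM whose log2 CPM followed *Bcl6* most closely out of 8499 were *Mpg* (Pearson r = 0.9985), a DNA glycosylase gene, *Dbf4* (r = 0.9939), the gene for the activating subunit of the replication kinase CDC7, and *Flii* (r = 0.9927), an actin-remodeling gene. These values describe 6 libraries in 2 groups and largely carry the difference between groups: *Mpg* was lower by 0.52, *Dbf4* by 0.28 and *Flii* by 0.34 on the log2 scale.

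RefSeq gives *Bcl6* a pair of start sites, and both windows held TTCNNNGAA, the core of the element that BCL6 binds and also the form of a STAT element (N is any base; the letters read the same on both strands). They are shown because BCL6 is known to bind its own promoter. The first window (chr16:23988803-23989102, minus strand, GRCm38.p6) held it once, starting 118 bases before the start site. The second (chr16:23981234-23981533, minus strand) held it 3 times, starting 168, 122 and 88 bases before the start site, and also held the ETS-IRF composite core GGAANNGAA, starting at 28 bases before. Capitals mark these matches.
Bcl6, first start: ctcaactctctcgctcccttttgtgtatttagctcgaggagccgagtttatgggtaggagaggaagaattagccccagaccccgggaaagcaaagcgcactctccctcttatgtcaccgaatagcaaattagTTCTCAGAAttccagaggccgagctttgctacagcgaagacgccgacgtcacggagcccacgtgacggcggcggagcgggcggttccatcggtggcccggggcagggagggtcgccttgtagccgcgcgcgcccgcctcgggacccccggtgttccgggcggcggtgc
Bcl6, second start: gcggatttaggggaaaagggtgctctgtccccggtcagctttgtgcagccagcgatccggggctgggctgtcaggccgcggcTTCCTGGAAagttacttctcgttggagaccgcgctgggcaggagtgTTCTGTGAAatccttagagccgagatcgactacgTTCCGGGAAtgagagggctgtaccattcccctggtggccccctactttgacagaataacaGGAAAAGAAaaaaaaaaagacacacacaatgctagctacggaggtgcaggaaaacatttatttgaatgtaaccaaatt

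Of the 15 windows, 5 held TTCNNNGAA, in *Bcl6*, *Bach2*, *Irf8* and *Mef2c*, against 8.30% of all windows. Windows of one gene are not independent, so no test was made. GGAANNGAA, the form bound jointly by an ETS factor such as SPIB and an IRF, was in 3 of 15 windows (*Bcl6*, *Bach2* and *Mef2c*) and in 8.24% of all. CCCNNGGG, the form of an EBF element, was in 3 windows (*Foxo1*, *Irf8* and *Spib*) and in 13.7% of all. The FOXO element GTAAACA, the BACH-MAF and AP-1 element TGAGTCA and the MEF2 element were in 0 of 15 windows, against 3.65%, 5.20% and 0.557% of all. All motifs were searched on both strands.

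Of the genes that BCL6 is known to repress, 14 of 23 tested were higher in cKO iGCBs and 4 lower, with a median log2 fold change of 0.424. The largest increases were those of *Cd80*, a costimulatory ligand of T cells, from 13.5 ± 1.15 to 68.8 ± 5.63 CPM (SD, n = 3 each; log2 fold change 2.35, adjusted p = 3.6e-07), and *Bcl2l1*, which encodes the survival factor BCL-XL, from 33.9 ± 2.25 to 147 ± 11.7 CPM (2.12, adjusted p = 2.67e-07). *S1pr1*, a receptor for exit from lymphoid tissue, and *Id2*, an inhibitor of E proteins, went the other way (-1.24 and -1.22, adjusted p = 1.33e-05 and 6.9e-05). *Prdm1*, the gene of the plasma cell regulator BLIMP1, is on this list too and was lower by 1.13 (adjusted p = 0.00161). Lists of known targets were taken from general knowledge with earlier results of these data known, and a target's change is not a measure of the activity of its regulator. Among 18 BCL6 corepressor genes, 8 were higher (44.4%) and 5 lower (27.8%), with a median of 0.115. The lower count was 3 without cKO replicate 1, without cKO replicate 2 or without control replicate 3, and the median was 0.064 without control replicate 1. *Hdac2* rose by 0.88, *Tbl1x* by 0.43 and *Kdm2b* by 0.37 on the log2 scale, whereas *Ring1* fell by 0.32 (adjusted p = 1.67e-06, 0.000119, 0.000207 and 0.024). In the list of class IIa histone deacetylases and signaling inputs of MEF2, 5 of 11 genes were higher and 3 lower (median 0.123). *Hdac5* and *Hdac9*, whose products repress MEF2 targets, fell by 0.79 and 0.61, and *Ppp3ca* and *Mapk14* (p38α) rose by 0.44 and 0.35 (adjusted p between 4.32e-06 and 0.00321). The other class IIa genes, *Hdac4* and *Hdac7*, were not called (log2 fold changes 0.12 and 0.09, adjusted p = 0.273 and 0.165). *Ppp3ca* encodes a catalytic subunit of calcineurin, and *Ppp3cb*, which encodes another, was lower (log2 fold change -0.31, adjusted p = 0.000623).

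*Pax5* and *Ebf1*, which encode the factors of B cell commitment, rose together. *Pax5* (chr4:44524757-44710487, minus strand) lay at 193, 189 and 208 CPM in cKO and at 131, 151 and 138 CPM in control libraries, an increase of 1.40-fold (log2 fold change 0.49 ± 0.0644 (SE), adjusted p = 0.000155). No library of one group reached the other. A gene on the opposite strand, 5730488B01Rik, shares 636 of the 8853 exonic bases of *Pax5*, was named here after its values were seen, and was higher in cKO by 2.64-fold (57.6 ± 5.28 against 21.8 ± 3.69 CPM, SD, n = 3 each; adjusted p = 1.49e-05). The labels do not settle whether the counting used strand, and if it did not, reads of the shared bases cannot be told apart. *Ebf1* (chr11:44617317-45008091, plus strand) lay at 187, 191 and 217 CPM in cKO and at 149.8, 153 and 128 CPM in control libraries (log2 fold change 0.47 ± 0.0807 (SE), adjusted p = 0.000887). Its 4 transcripts were not called individually (adjusted p between 0.177 and 0.809). Their split was uneven between libraries of the same group, as the share of NM_007897 ran from 39.3% to 66.3% in controls and from 49.2% to 60.7% in cKO.

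*Ebf1* and *Mef2c* can also be expressed in mesenchymal cells, so the markers of the feeder cells were read beside them. The 11 fibroblast markers summed to 104 to 128 CPM in cKO and to 77.0 to 142 CPM in control libraries, which overlap. Like *Ebf1* and *Mef2c*, 2 of the 8 tested were higher in cKO: *Fn1* (fibronectin) at 40.3 ± 5.79 against 19.2 ± 4.84 CPM (SD, n = 3 each; log2 fold change 1.07, adjusted p = 0.000651), and *Fbn1* (fibrillin) at 3.09 to 4.56 CPM against 0 in every control. The collagen gene *Col1a1* averaged 38.7 CPM in cKO and 51.7 CPM in controls and was not called (adjusted p = 0.154). In edgeR 0 were lower (1 lower at an unadjusted p under 0.05 and 1 in DESeq2, *Thy1*). Control replicate 3 held the lowest sum, and without it 3 markers were lower in cKO. *Lum* and *Postn* were at 0 in every library. The cells had been sorted for YFP, and the study describes no YFP in the feeders. The part of feeder RNA in the *Ebf1* and *Mef2c* values was not tested.

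Genes that PAX5 activates were divided. Of 19 tested, 4 were higher and 8 lower, with a median log2 fold change of -0.123. *Cr2*, the complement receptor CD21, rose by 1.17 from 6.34 CPM (adjusted p = 0.00129), whereas *Id3*, an inhibitor of E proteins, fell by 1.93 (adjusted p = 3.42e-07). The list holds *Ebf1*, *Bach2* and *Spib* as members. Of 11 tested genes that PAX5 represses, 8 were lower and 0 higher, with a median of -1.10, and all 8 were past 1.5-fold. The count of 0 higher in edgeR was also 0 at an unadjusted p under 0.05 and in DESeq2. *Jchain*, which joins polymeric immunoglobulin, fell from 116 ± 27.0 to 7.25 ± 2.33 CPM (SD, n = 3 each; log2 fold change -4.00, adjusted p = 1.58e-06). *Emb* fell by 1.41, *Sdc4* by 1.17 and *Prdm1*, the plasma cell regulator BLIMP1, by 1.13 (adjusted p = 4.96e-05, 3.42e-07 and 0.00161). Of 13 tested genes that EBF1 activates, 4 were higher and 8 lower (median -0.372). *Cr2*, which is on this list too, was higher by 1.17. *Fcrla* fell by 1.22, *Blk*, a Src-family kinase of the B cell receptor, by 0.86 and *Vpreb3* by 0.76 (adjusted p = 0.000105, 7.31e-06 and 7.1e-05), and of its members *Pax5* was higher while *Foxo1* and *Pou2af1* were lower.

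**Figure D2:**
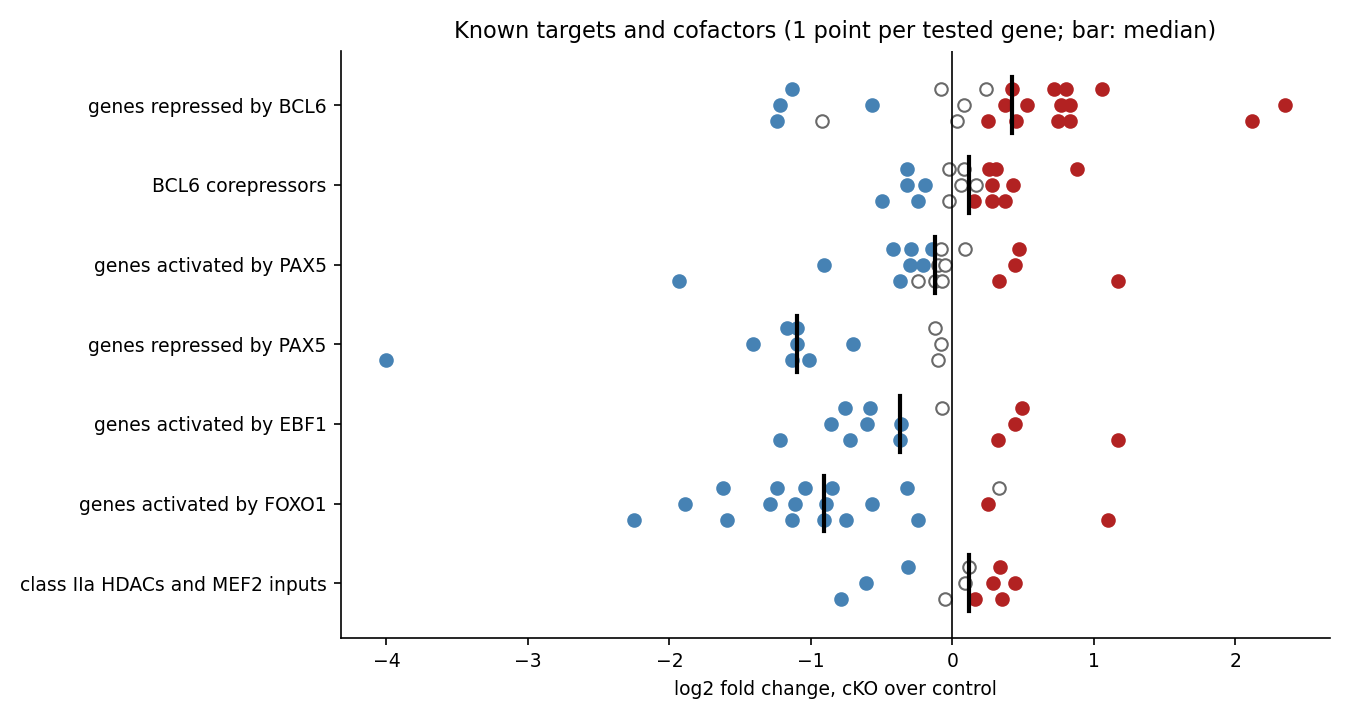
Log2 fold change, cKO over control, of each tested gene in 7 lists of known targets and cofactors, with a bar at the median; red and blue points were called higher and lower, open points were not called. Genes repressed by PAX5 and genes activated by FOXO1 lie mostly to the left (medians -1.10 and -0.905), and genes repressed by BCL6 mostly to the right (median 0.424).

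*Foxo1* was lower in cKO iGCBs. FOXO1 is kept out of the nucleus by PI3K and AKT signaling and is required for the dark zone of the germinal center. Its gene (chr3:52268336-52353221, plus strand) lay at 227, 239.6 and 242 CPM in cKO and at 399.9, 355 and 319.9 CPM in control libraries. The controls varied more than the cKO libraries and all lay above them (log2 fold change -0.60 ± 0.0757 (SE), adjusted p = 0.000116). Without control replicate 1 the fold change was -0.51, still called but no longer past 1.5-fold. Of its relatives, *Foxp1* was lower by 0.18 (adjusted p = 0.0475, with overlapping groups), and *Foxo3* and *Foxo4* were not called (adjusted p = 0.775 and 0.0761).

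Genes that FOXO1 activates were lower in 16 of 19 tested cases and higher in 2, with a median log2 fold change of -0.905. In 13 of the 16 the decrease was past 1.5-fold. Over all tested genes 24.5% were called lower, and 10.6% were called lower past 1.5-fold. The higher genes were *Il7r* and *Batf* (log2 fold changes 1.10 and 0.25, adjusted p = 0.0343 and 0.0407). Their count was 0 without cKO replicate 1, without cKO replicate 2 or without control replicate 1, and 1 without control replicate 3. *Bcl2l11*, which encodes the death factor BIM, fell from 254 ± 45.4 to 68.4 ± 6.82 CPM (SD, n = 3 each; log2 fold change -1.89, adjusted p = 2.59e-06). *Cxcr4*, the chemokine receptor that holds cells in the dark zone, fell from 470.4 ± 84.2 to 153 ± 1.63 CPM (-1.62, adjusted p = 2.47e-06). *Pik3ip1*, an inhibitor of PI3K, fell by 1.59 and *Ccng2*, a cyclin gene of arrested cells, by 1.29 (adjusted p = 4.27e-06 and 8.62e-06). *Bcl6* is on this list too.

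*Pou2af1*, by level the most abundant of the 10, was lower in cKO. It lies on chromosome 9 (chr9:51213708-51240080, plus strand) and lay at 1785, 1723 and 1758 CPM in cKO and at 2694, 2718 and 2456 CPM in control libraries, so that 66.9% of the control mean remained (log2 fold change -0.58 ± 0.0438 (SE), adjusted p = 5.25e-06). The groups were far apart relative to the spread within them. The genes of its octamer-binding partners were also lower: *Pou2f1* (OCT1) by 0.43 and *Pou2f2* (OCT2) by 0.55 on the log2 scale (adjusted p = 0.000336 and 0.000149).

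*Spib* and *Irf8* encode an ETS factor and an interferon regulatory factor that can bind DNA together. *Irf8* (chr8:120736358-120756694, plus strand) lay at 566, 547 and 587 CPM in cKO and at 692, 714 and 756 CPM in control libraries, without overlap (log2 fold change -0.35 ± 0.0505 (SE), adjusted p = 0.000298). Between 99.6% and 99.9% of its counts came from NM_008320. *Spib* (chr7:44525993-44532071, minus strand) lay at 327, 339 and 342 CPM in cKO and at 339, 390.4 and 369 CPM in control libraries. The lowest control fell within the cKO range, and the difference was not called (log2 fold change -0.12 ± 0.0585 (SE), adjusted p = 0.11). Without control replicate 1 it was -0.17 with adjusted p = 0.034 in edgeR's quasi-likelihood test, so that library decided whether *Spib* was called. The related ETS genes *Spi1* (PU.1) and *Ets1* were lower by 0.87 and 0.24 (adjusted p = 3.07e-06 and 0.0164), and *Spic*, whose mean was 0.09 CPM in cKO and 0.109 CPM in controls, was too low to test. *Irf4*, whose product opposes IRF8 at shared sites and drives plasma cell differentiation at high levels, was higher by 0.42 (adjusted p = 0.00282). The window at the first *Irf8* start (chr8:120736108-120736407, plus strand, GRCm38.p6) is shown for its pair of TTCNNNGAA matches, starting 171 and 153 bases before the start site, and its CCCNNGGG match, all in capitals.
Irf8: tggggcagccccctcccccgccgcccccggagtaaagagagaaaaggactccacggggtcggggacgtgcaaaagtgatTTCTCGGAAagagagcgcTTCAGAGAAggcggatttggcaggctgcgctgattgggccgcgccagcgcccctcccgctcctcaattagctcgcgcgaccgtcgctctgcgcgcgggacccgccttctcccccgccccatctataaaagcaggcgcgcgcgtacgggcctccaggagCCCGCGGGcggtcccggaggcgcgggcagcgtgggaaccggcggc

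*Bach2* was also lower in cKO iGCBs. The gene (chr4:32238804-32586108, plus strand) lay at 173, 163 and 196 CPM in cKO and at 239, 266 and 209 CPM in control libraries. The closest libraries of the groups, at 196 and 209 CPM, were nearer to each other than to the extremes of their own groups (log2 fold change -0.42 ± 0.0911 (SE), adjusted p = 0.00321). The antisense gene *Bach2os* had at most 17 counts in any library. BACH2 pairs with small MAF proteins, of which *Maff* and *Mafg* were lower (by 0.59 and 0.37, adjusted p = 0.00174 and 0.0084) and *Mafk* was not called (-0.31, adjusted p = 0.0664). Its relative *Bach1*, a heme-regulated repressor, fell from 54.3 ± 2.74 to 23.8 ± 2.60 CPM (SD, n = 3 each; log2 fold change -1.19, adjusted p = 7.24e-06).

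Together the relatives and partners numbered 24 genes, of which 23 were tested: 5 were higher, 13 lower and 5 not called, with a median log2 fold change of -0.291. The E protein group was split. *Tcf3* (E2A) and *Tcf12* (HEB) were higher by 0.21 and 0.47 (adjusted p = 0.00677 and 0.00012) and *Tcf4* (E2-2) was lower by 0.41 (adjusted p = 0.000618), while their inhibitors *Id3* and *Id2* fell by 1.93 and 1.22 and were the largest changes on the list. *Ikzf1* (Ikaros) was higher by 0.38 and *Ikzf3* (Aiolos) lower by 0.29 (adjusted p = 0.000164 and 0.000836). *Bcl11a*, which encodes a repressor needed for early B cell development, had the largest increase, 0.66 (adjusted p = 9.79e-05). *Bcl6b*, the closest relative of *Bcl6*, had a mean of 2.04 CPM in cKO and of 2.32 CPM in controls and was not called (adjusted p = 0.598).

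**Figure D3:**
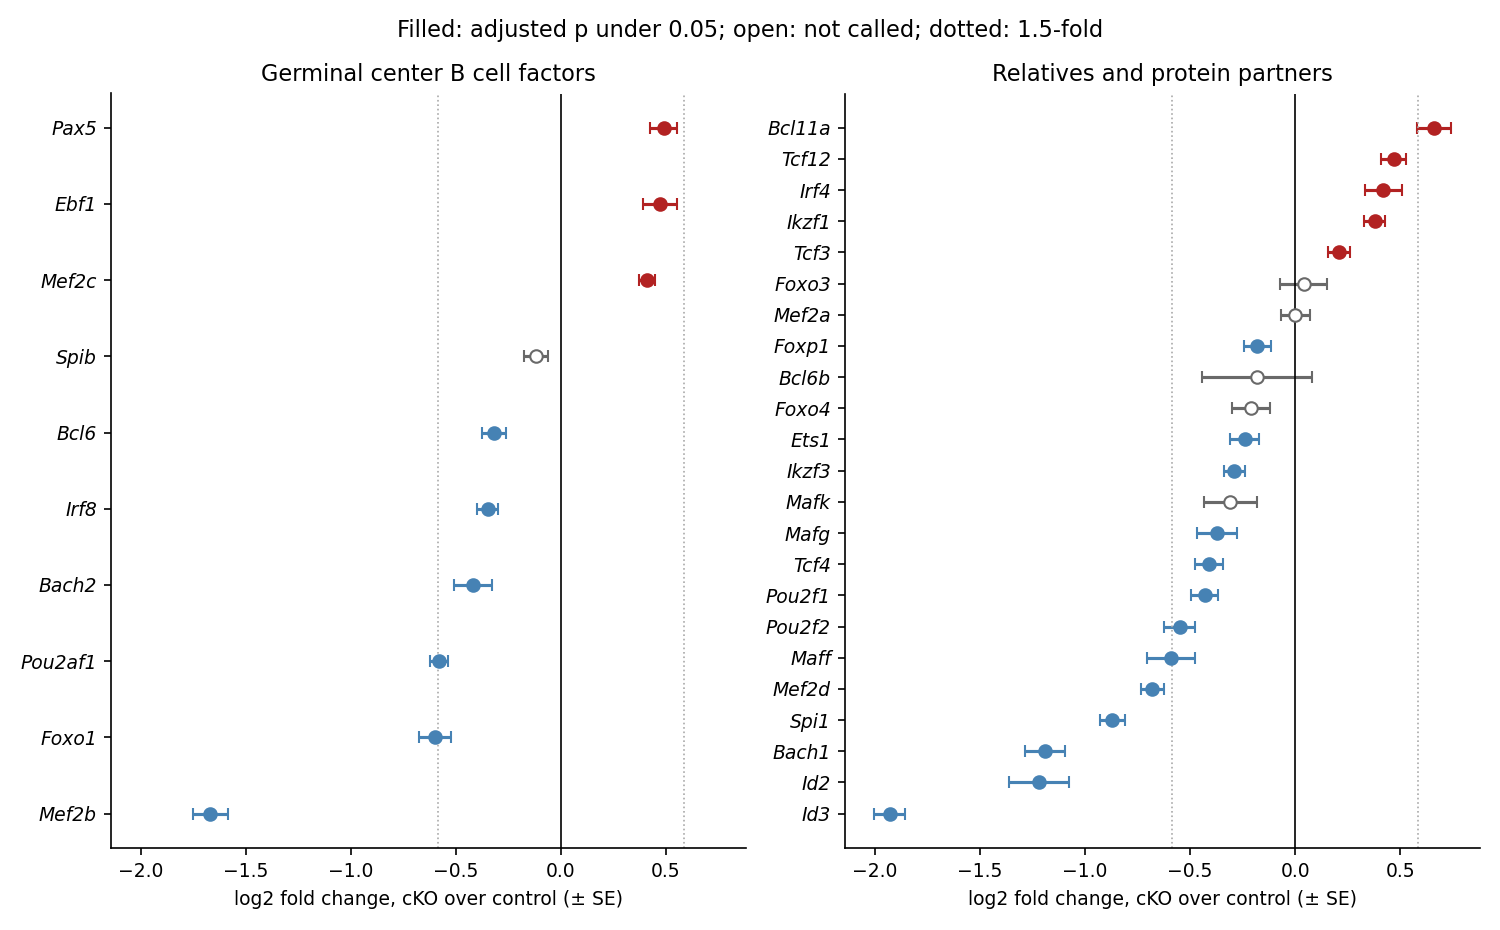
Log2 fold change, cKO over control, with its SE, of the 10 factor genes (left) and of 23 tested relatives and partners (right); red and blue points were called higher and lower, open points were not called, and dotted lines mark 1.5-fold. *Mef2b* (-1.67) stands apart on the left panel, and *Id3* (-1.93), *Id2* (-1.22) and *Bach1* (-1.19) lead the decreases on the right.

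At the level of transcripts, the 10 genes had 15 RefSeq transcripts in the table, all tested, of which 3 were higher and 6 lower, against 12.4% and 12.7% of all 18040 tested transcripts. Because 7 genes had a single transcript, most of these calls repeat the gene. A change in the split between transcripts of one gene, tested with edgeR's diffSpliceDGE, was called for 0.638% of 7837 transcripts and for 0 of the 8 transcripts of *Mef2c*, *Ebf1* and *Irf8* (adjusted p of 1.00 for each, and 0 at an unadjusted p under 0.05). The 7837 can include transcripts matched to no gene, which were handled together as 1 gene. Of 36026 transcripts, 34674 were matched to a gene. StringTie's division of reads between transcripts varied between replicates, as for *Ebf1*, and a change in split may go undetected for that reason.

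Levels of different genes are compared per transcript length, as TPM, the share of each gene in all length-corrected counts, computed from the deposited transcript counts. In control iGCBs the order was *Pou2af1* (2133 ± 137 TPM, SD, n = 3), *Mef2c* (786 ± 20.3), *Irf8* (524 ± 21.1), *Spib* (272 ± 20.9), *Foxo1* (85.6 ± 9.86), *Mef2b* (73.3 ± 0.623), *Ebf1* (66.8 ± 4.41), *Bcl6* (61.2 ± 2.68), *Bach2* (58.1 ± 7.50) and *Pax5* (36.3 ± 2.92). The libraries of *Ebf1* and *Bcl6* overlapped, as did those of *Bcl6* and *Bach2*, so these neighbors in the order were not separated by their spread. The first 4 places were the same in cKO iGCBs. Below them the order differed: *Ebf1* moved from place 7 to place 5 (89.2 ± 7.84 TPM), *Pax5* from place 10 to place 7 (50.2 ± 3.01), and *Mef2b* from place 6 to place 10 (22.8 ± 1.14). In cKO the values of *Pax5* and *Bcl6*, and of *Bcl6* and *Bach2*, overlapped between libraries. The place of *Ebf1* in controls depended on the length used: with the longest transcript of each gene it was 9 (51.3 TPM, below 63.1 for *Bcl6* and 60.0 for *Bach2*), and in cKO it was 5 (69.9 TPM). The places of *Pax5* and *Mef2b* were the same with either length.

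**Figure D4:**
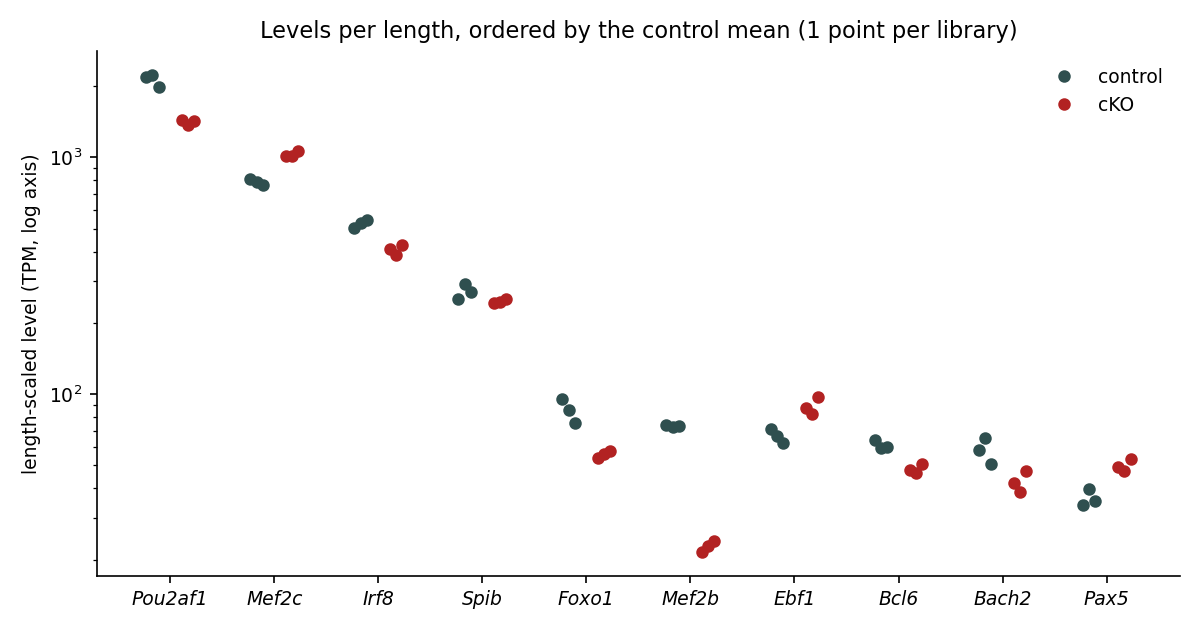
Length-scaled level in TPM (log axis) of the 10 factor genes in each control (dark) and cKO (red) library, ordered by the control mean. *Pou2af1* and *Mef2c* are highest in both groups, and *Mef2b* goes from 73.3 TPM in control to 22.8 TPM in cKO, the lowest of the 10.

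Markers of B cell states differed as well. Of 12 germinal center B cell markers 1 was higher and 7 were lower in cKO (median log2 fold change -0.808). The marker that rose was *Fas*, the death receptor carried by germinal center B cells, from 69.5 ± 4.31 to 92.3 ± 3.32 CPM (SD, n = 3 each; log2 fold change 0.41, adjusted p = 0.00036). *Gcsam*, *Neil1*, *Plxnb2* and *Mybl1* had log2 fold changes of -2.75, -2.28, -1.27 and -0.93 (adjusted p = 4.29e-06, 6.2e-07, 1.44e-05 and 0.000168). Of 9 tested plasma cell markers 2 were higher and 6 lower (median -0.776). The higher ones were *Sdc1*, the surface marker CD138, from 4.70 ± 0.852 to 14.2 ± 1.04 CPM (SD, n = 3 each; log2 fold change 1.6, adjusted p = 2.06e-05), and *Irf4*. Among the lower ones, *Xbp1*, the regulator of the secretory program, fell by 1.10 and *Mzb1*, a chaperone of immunoglobulin assembly, fell by 0.62 (adjusted p = 1.94e-06 and 1.97e-05), beside *Jchain* and *Prdm1* given above. Of 7 tested naive B cell markers 5 were lower and 0 higher in edgeR (0 also at an unadjusted p under 0.05, 1 in DESeq2, *Gpr183*, 2 with the replicate number as a block and 2 without control replicate 3; median -0.297), with *Ccr7* lower by 0.89, *Klf2* by 0.85 and *Cd55* by 0.30 (adjusted p = 7.23e-05, 1.11e-05 and 0.03). Of 8 pan-B cell markers 2 were higher and 6 lower (median -0.279). *Cd74* fell by 0.61 and *Cd79a* by 0.37 (adjusted p = 7.81e-07 and 0.000139). The lists share genes, and the naive and FOXO1 lists have *Ccr7*, *Klf2* and *S1pr1* in common.

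Markers of other cell types were read in the same way. T cell markers summed to 25.1 to 27.2 CPM in cKO and to 40.2 to 45.1 CPM in control libraries. *Lck* made most of this sum, at means of 24.5 CPM in cKO and 38.1 CPM in controls. The only 2 tested of 7, *Lck* and *Cd5*, were lower. The other 5 were under 1 CPM in every library, and *Cd3e* was at 0 in all of them. Myeloid markers summed to 4.08 to 6.06 CPM in cKO and to 1.22 to 2.45 CPM in control libraries, with *Cd14*, *S100a8* and *S100a9* at 0 in every library. Of 2 tested, the macrophage marker *Adgre1* (F4/80) was higher, at 3.64 to 5.54 CPM in cKO and 0.62 to 2.02 CPM in control libraries (log2 fold change 1.96, adjusted p = 0.00203). *Adgre1* made most of the myeloid sum, and the other 7 myeloid markers were under 1 CPM in every library. The part of RNA of other cells in the factor genes' values was not tested. Plasmacytoid dendritic cells also express *Irf8*, *Spib* and *Tcf4*. Their markers summed to 129.7 to 148 CPM in cKO and to 169.6 to 179.9 CPM in control libraries, of which *Tcf4* made most, and the defining markers *Siglech* and *Klk1* were at 0 in every library.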

How the data were processed

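Poly(A) RNA of day 3 YFP+ iGCBs was sequenced in 3 cKO and 3 control libraries. Per the study's methods and the submitters' processing notes, reads were aligned with HISAT2 to mm10 and quantified with StringTie, and the deposited tables, written by its prepDE script, hold estimated counts for genes and for RefSeq transcripts. Versions are not given in the sources used here. The deposited values are whole, so rounding changed nothing. Totals were 39079582 to 45504570 per library, at which 3 counts equal 0.0661 to 0.0763 CPM; this floor covers counting error only.

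Counts were tested in R 4.3.3 with edgeR 4.0.16 (filterByExpr with a minimum count of 10, TMM, glmQLFit and glmQLFTest, Benjamini-Hochberg over 13296 genes), cKO against control, without covariates. DESeq2 1.42.0 was an alternative, as were other normalizations and filters, a test against 1.5-fold, *Xist* reads as a covariate, a replicate block and each library left out. Fits were first tested on simulated data. TPM used GENCODE M21 lengths, known for 34148 of 36026 transcripts. Gene coordinates are from GENCODE M21 (GRCm38) and promoter windows from RefSeq (GRCm38.p6); all 10 genes had a window.

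The 10 genes and all lists were chosen with earlier results of these data known. Named were the 10 genes, *Eif3e*, all relatives and partners, up to 4 genes per other list with the largest fold change among those called whose mean was 10 CPM or more, and the 3 genes most correlated with *Bcl6*. *Rgs13*, *Nuggc*, *Fas*, *Sdc1*, *Il7r*, *Batf*, *Thy1*, *Fbn1*, *Col1a1*, *Adgre1*, *Gpr183*, *Cd5*, *Ppp3cb*, *Hdac4*, *Hdac7*, the genes overlapping a factor gene and markers at 0 were named after their values were seen. Some genes that this rule selects are not reported here.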

Additional observations from a re-analysis of the deposited data

How the results depend on the processing

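Over 13 alternative settings, 9 of the 10 factor genes kept their direction and their side of the threshold, and *Spib* kept its direction and was called in 1 setting, without control replicate 1 (log2 fold change -0.17, adjusted p = 0.034). Leaving out 1 library at a time gave -0.17 to -0.08 for *Spib*. The count of factor genes lower by over 1.5-fold was 1 with *Xist* reads as a covariate, 1 when edgeR tested against a fold of 1.5, and 1 to 3 with 1 library left out; it was 1, *Mef2b* alone, without control replicate 1. The test against 1.5-fold called 584 genes higher and 580 lower, since it asks for more than the fold filter. With the longest transcript as the length, the control level was 75.7 TPM for *Mef2b* and 51.3 TPM for *Ebf1*, which put *Ebf1* in place 9 instead of 7 of the order in controls. The median of the plasmacytoid dendritic cell markers, which rests on 2 tested genes, was -0.0154 with *Xist* reads as a covariate and ran from -0.0434 (without control replicate 2) to 0.178 (without control replicate 3) with 1 library left out, with -0.0117 without cKO replicate 3. Of 624 list counts and medians under the alternatives, these 3 medians reversed, 25 moved and 12 counts rose from 0.

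The labels do not state whether the replicate numbers pair the samples. Deviations of same-numbered libraries from their group means correlated at 0.00851, 0.0839 and 0.133, and those of differently numbered libraries at -0.169 to 0.103. These ranges overlap and do not decide whether samples were paired. The study used paired t tests for its proliferation, death and flow cytometry measurements of control and cKO iGCBs. With the replicate number as a block, 3 factor genes were higher and 6 lower, as without it, and 3069 genes were higher and 3165 lower over all. Leaving out immunoglobulin genes gave no value, as 0 such segment genes were in the table used here. Depth limits statements on *Spic*, *Bcl6b* and the minor transcripts of *Ebf1* and *Irf8*, and with 3 libraries a group small changes like that of *Spib* may be missed.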
